A study of Mus musculus with 16 samples.

Results

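Immediate early genes are transcribed within minutes of a signal reaching the cell, without new protein synthesis. The 10 described here, Fos, Fosb, Jun, Junb, Atf3, Egr1, Nr4a1, Ier2, Dusp1 and Btg2, were found by symbol in a table of estimated counts with 23224 gene rows. All 10 had a row and all 10 were among the 14857 genes that passed the filter on low counts. Their levels were compared across 16 small cell lung cancers, and between sister tumors, the term used here for tumors that grew in the same mouse. RNA sequencing was done on whole tumors dissected from mouse lungs at necropsy and then flash-frozen. All 16 tumors, in both groups, were Trp53-/-; Rb1-/-, on a mixed C57BL/6;129/Sv background. The p107 group held 8 tumors with a CRISPR mutation of p107, encoded by Rbl1, and the p130 group held 8 tumors with a CRISPR mutation of p130, encoded by Rbl2. Tumors with neither mutation and the ages of the mice were not analysed here. Read from the number in each tumor's title, the p107 tumors came from 4 mice and the p130 tumors from 3 mice, and no mouse carried both mutations. The titles call a tumor by its guide RNA, its mouse and its tumor number, as in sgp107_6627T1.

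In most cells immediate early genes are held at a low level and are switched on by growth factor signaling through ERK kinases to serum response factor with its ETS partners, and by cyclic AMP and calcium signaling to CREB. Handling, ischemia and dissociation of a tissue are also known to induce them, and their transcripts decay quickly. Fos, Fosb, Jun, Junb and Atf3 encode basic leucine zipper proteins that pair into AP-1 and related dimers. Egr1 encodes a zinc finger transcription factor and Nr4a1 an orphan nuclear receptor. Ier2 encodes a small nuclear protein, Dusp1 a phosphatase that switches MAP kinases off, and Btg2 an antiproliferative protein whose gene is also a target of p53.

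Promoters, where these signals are read, are shown for Fos and for 5 genes to which the results return. Fosb and Nr4a1 were highest in the same tumor, Junb belonged to the closest pair, and Dusp1 and Btg2 had the largest shares of variance between mice. Each sequence is from RefSeq (GRCm38.p6) and runs 5′ to 3′ along the gene, from 250 bases before the annotated start to 50 after it. Capitals mark TGACG, the core of the cAMP response element to which CREB and ATF proteins bind, or its reverse complement CGTCA.
Fos, chr12:85473640-85473939, plus strand: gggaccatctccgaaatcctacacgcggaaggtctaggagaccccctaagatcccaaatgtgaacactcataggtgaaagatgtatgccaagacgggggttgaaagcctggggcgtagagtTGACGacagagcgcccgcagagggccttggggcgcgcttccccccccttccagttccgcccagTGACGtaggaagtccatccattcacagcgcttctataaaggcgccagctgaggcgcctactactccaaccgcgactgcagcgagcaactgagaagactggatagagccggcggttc
Fosb, chr7:19309996-19310295, minus strand: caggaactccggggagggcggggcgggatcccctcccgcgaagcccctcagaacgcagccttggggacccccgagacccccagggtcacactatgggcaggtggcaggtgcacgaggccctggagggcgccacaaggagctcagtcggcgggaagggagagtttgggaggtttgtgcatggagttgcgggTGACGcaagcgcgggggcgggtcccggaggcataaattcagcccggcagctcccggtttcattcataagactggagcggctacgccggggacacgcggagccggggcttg
Junb, chr8:84978699-84978998, minus strand: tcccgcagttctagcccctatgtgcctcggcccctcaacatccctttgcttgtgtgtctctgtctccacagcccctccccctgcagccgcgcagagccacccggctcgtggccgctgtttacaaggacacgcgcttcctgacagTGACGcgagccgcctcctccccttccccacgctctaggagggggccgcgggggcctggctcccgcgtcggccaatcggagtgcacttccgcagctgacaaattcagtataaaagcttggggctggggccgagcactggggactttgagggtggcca
Nr4a1, chr15:101266596-101266895, plus strand: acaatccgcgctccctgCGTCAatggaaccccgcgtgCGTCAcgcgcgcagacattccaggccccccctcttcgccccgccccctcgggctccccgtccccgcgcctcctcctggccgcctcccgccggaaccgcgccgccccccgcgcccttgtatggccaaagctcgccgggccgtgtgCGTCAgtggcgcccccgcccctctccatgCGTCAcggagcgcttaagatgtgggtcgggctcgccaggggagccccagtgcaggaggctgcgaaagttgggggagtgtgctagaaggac
Dusp1, chr17:26508423-26508722, minus strand: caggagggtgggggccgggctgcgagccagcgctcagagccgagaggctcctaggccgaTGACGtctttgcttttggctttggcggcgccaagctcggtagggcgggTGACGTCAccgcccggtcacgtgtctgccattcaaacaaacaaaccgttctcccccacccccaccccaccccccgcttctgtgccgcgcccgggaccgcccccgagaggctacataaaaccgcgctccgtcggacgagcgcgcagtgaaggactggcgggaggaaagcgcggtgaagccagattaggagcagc
Btg2, chr1:134079106-134079405, minus strand: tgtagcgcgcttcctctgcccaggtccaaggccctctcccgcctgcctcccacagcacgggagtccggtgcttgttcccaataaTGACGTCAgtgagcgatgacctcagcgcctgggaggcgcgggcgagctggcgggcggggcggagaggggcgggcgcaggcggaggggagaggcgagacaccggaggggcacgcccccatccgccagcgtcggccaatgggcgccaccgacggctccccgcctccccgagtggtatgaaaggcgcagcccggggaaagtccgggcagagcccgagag
Of the 10 genes, 8 had a promoter in the RefSeq table, the exceptions being Egr1 and Ier2. TGACG was found on either strand in 7 of these 8, all but Jun, and in 20.8% of the 32851 promoters in the table. It lay 66 and 129 bases before the start of Fos, 60 bases before that of Fosb and 106 before that of Junb, and Nr4a1 held 4 copies. The full palindrome TGACGTCA, which contains TGACG on both strands, was found in Btg2 and Dusp1, 166 and 143 bases before the start, against 1.79% of all promoters. GCGNGGGCG, an EGR motif, was found in Btg2, Fosb and Nr4a1 (5.55% of all), CCGGAA, an ETS motif, in Nr4a1 (14.9%), and TATAAA in Junb and Fos (13.6%). The CArG box of serum response factor (1.63% of all) and the AP-1 motif TGANTCA (7.81%) were found in none of the 8 windows. These are matches of letters within 300 bases, counted on both strands, and the well-known serum response element of Fos need not lie inside such a window.

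The depth was 13300223 to 34620979 estimated counts in the p107 tumors and 12700334 to 21254514 in the p130 tumors. All 10 neuroendocrine markers examined were detected in all 16 tumors, among them Insm1 and Chga, and the tissue label was thus met. The ribosomal transcript Rn45s took 0.547% to 7.75% of counts. Rbl2 lay at 55.4 to 128 CPM in p107 tumors and at 15.6 to 54.4 in p130 tumors, while Rbl1 lay at 64.3 to 247 and 60.6 to 121 CPM, so only the level of Rbl2 separated the groups. All 8 p107 tumors but only 2 p130 tumors had Y-linked transcripts, so sex and mutation are largely confounded. The libraries that stood apart most were sgp107_6627T1, which had the lowest level of 17.2% of all genes tested, and sgp130_6637T1, with 13.9%.

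Levels are given in CPM, read counts relative to the depth of each library after TMM scaling, which are comparable between tumors for 1 gene but not between genes, since no gene lengths were used. In whole tumors, fewer cells expressing a gene and less RNA per cell cannot be told apart. Fos, the AP-1 subunit by which the class is best known, lay between 11.2 and 16.1 CPM in the p107 tumors, with a median of 14.6. In the p130 tumors it ran from 9.31 to 25.8 CPM, with a median of 17.0. The 3 highest tumors were all p130 tumors, at 25.8 CPM in sgp130_6637T3, 22.0 in sgp130_6637T2 and 20.4 in sgp130_6697T1, and the lowest was also one, so the groups overlapped fully. Fosb, a close relative of Fos, was scarce, with estimated counts of 11 to 78.0 per tumor. It lay at 0.625 to 1.67 CPM (median 1.04) in p107 tumors and at 0.837 to 5.68 CPM (median 1.5) in p130 tumors. A single p130 tumor, sgp130_6638T3, was at 5.68 CPM, and its sister tumors sgp130_6638T5 and sgp130_6638T4 were at 2.35 and 1.16.

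Jun, the usual partner of Fos, lay at 62.3 to 178 CPM in p107 tumors (median 83.4) and at 62.6 to 208 CPM in p130 tumors (median 94.0). The highest p107 tumor was sgp107_6629T1 and the highest p130 tumor sgp130_6697T2, and the ranges of the groups nearly coincided. The other 14 tumors were between 62.3 and 116 CPM. Junb, an AP-1 subunit with weaker transforming activity than Jun, lay at 17.3 to 38.8 CPM (median 23.8) in p107 tumors and at 17.8 to 53.5 CPM (median 32.7) in p130 tumors. The 3 highest were the p130 tumors sgp130_6637T3, sgp130_6638T3 and sgp130_6637T2, at 53.5, 47.8 and 44.9 CPM, and the groups overlapped below these. Atf3, a stress-induced partner of the Jun proteins, lay at 2.33 to 13.1 CPM (median 8.57) in p107 tumors and at 5.10 to 17.0 CPM (median 9.13) in p130 tumors. The lowest tumor was sgp107_6627T1 and the highest sgp130_6697T2, which was also the highest for Jun.

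Egr1 was the most variable of the 10 on the log2(CPM + 1) scale used for spread. It lay at 54.2 to 158 CPM in p107 tumors (median 105) and at 46.4 to 397 CPM in p130 tumors (median 101.3). Tumors sgp130_6637T3 and sgp130_6637T2, at 397 and 333 CPM, were above all others, while their sister sgp130_6637T1 was the lowest of the 16. The medians were near each other and the groups overlapped. Nr4a1 lay at 6.52 to 12.6 CPM (median 8.20) in p107 tumors and at 5.23 to 19.7 CPM (median 6.41) in p130 tumors. The tumor at 19.7 CPM was sgp130_6638T3, the same tumor that was highest for Fosb. Next came both tumors of mouse sgp107_6627, at 12.6 and 12.04 CPM.

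Ier2 lay at 12 to 35.2 CPM in p107 tumors (median 23.6) and at 15.4 to 45.9 CPM in p130 tumors (median 33.1). Its 3 highest values, 45.9, 45.2 and 40.5 CPM, were those of the 3 tumors of mouse sgp130_6637. Dusp1 lay at 32.8 to 97.6 CPM in p107 tumors (median 46.0) and at 32.4 to 111 CPM in p130 tumors (median 42). Tumor sgp130_6697T1 was at 111 CPM and the 2 tumors of mouse sgp107_6627 at 97.6 and 81.5 CPM, and the other 13 tumors were between 32.4 and 58.5. Btg2 lay at 35.9 to 274 CPM in p107 tumors (median 195) and at 106 to 209 CPM in p130 tumors (median 150.1). The 2 tumors of mouse sgp107_6627 held the lowest values, 35.9 and 76.2 CPM, and the other 6 p107 tumors were between 134.9 and 274 CPM.

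**Figure D1:**
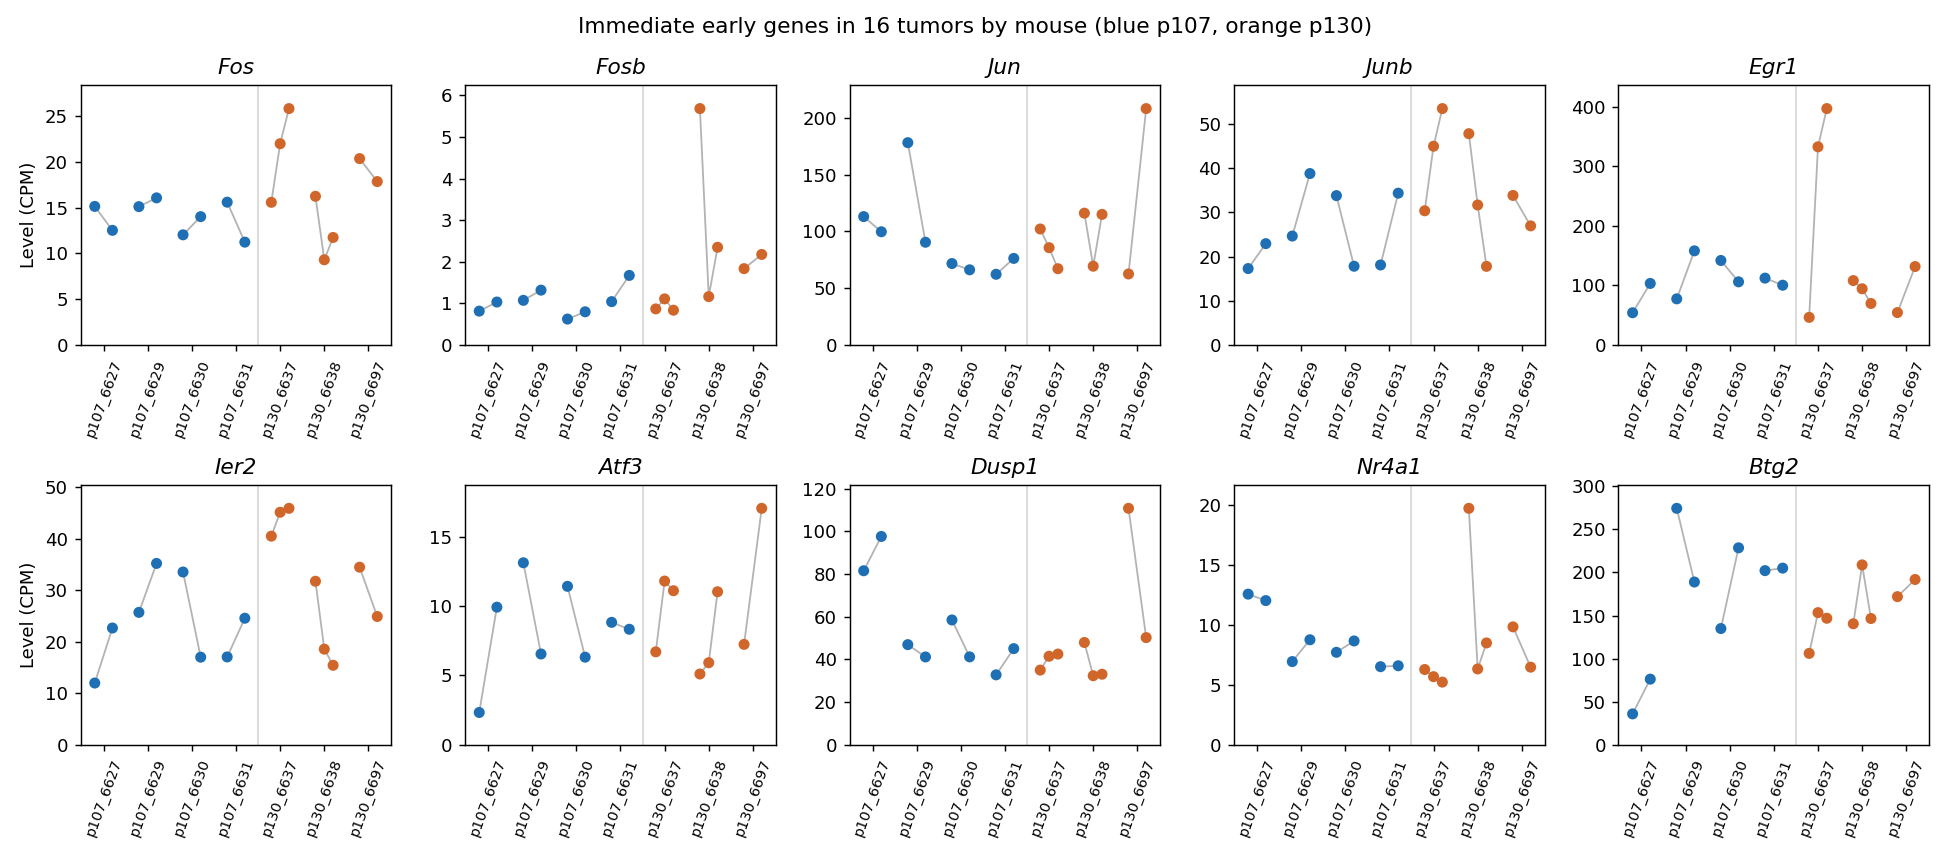
Level of each immediate early gene in CPM (vertical axis, linear and from 0) in the 16 tumors, grouped by mouse (horizontal axis); each point is 1 tumor, blue for p107 and orange for p130, and grey lines join sister tumors. Fosb and Nr4a1 peak in the same tumor of mouse sgp130_6638 at 5.68 and 19.7 CPM, and Btg2 is lowest in both tumors of mouse sgp107_6627.

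The range over the tumors differed between the 10 genes. From the lowest to the highest tumor, Fos differed 2.77-fold, Junb 3.09-fold, Jun 3.34-fold, Dusp1 3.42-fold, Nr4a1 3.77-fold and Ier2 3.83-fold. The ratio was larger for Atf3, at 7.31-fold, Btg2, at 7.65-fold, Egr1, at 8.54-fold, and Fosb, at 9.10-fold, where the lowest value rests on 11 counts. The SD of log2(CPM + 1) over the tumors had a median of 0.526 over the 10 genes and of 0.392 over all genes tested. It was above the latter value in 9 of the 10, with Fos the exception at 0.355. Egr1 stood at the 88.1 percentile of all genes tested and Btg2 at the 82.1 percentile.

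The p107 and p130 tumors were compared with edgeR's quasi-likelihood test over all 14857 genes. None of the 10 immediate early genes passed an adjusted p of 0.05, a threshold that 4 genes, or 0.0269% of those tested, passed. At an unadjusted p under 0.05, 1 of the 10 was counted, Fosb, where 11.8% of all genes tested were counted. DESeq2 also called 0 of the 10 while calling 212 genes, or 1.43%. The fitted log2 fold change was lower in p107 tumors for 7 of the 10, where 50.0% of all genes tested were lower, and its median over the 10 was -0.25, against a median over all genes tested near 0. Of the 10, 0 had groups that did not overlap, against 0.141% of all genes tested. Sister tumors entered this test as separate samples, so its p-values measure the spread among tumors and not among mice alone. Markers of other cell types also differed in sign between the groups. Of 8 endothelial markers 7 had a higher fitted level in p107 tumors, with a median log2 fold change of 0.50, 5 at an unadjusted p under 0.05 and 0 called. All tested markers of red blood cells, B and plasma cells and T and NK cells, 3 each, were fitted higher in p107 tumors. Of these, 0 were called. Among markers with a row, tumor sgp107_6631T2 was highest for 5 of 5 of B and plasma cells. It was also highest for 6 of 7 of T and NK cells and 3 of 5 of red blood cells. The other 2 red blood cell markers peaked in its sister sgp107_6631T1. The group medians, p107 first, were 0.555 and 0.540 CPM for Cd3g and 11.4 and 9.45 CPM for Igj. They lay farther apart for Cd79b, at 1.76 and 0.685 CPM. The part of these cell types in the values of the 10 genes was not tested.

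Fosb averaged 1.05 ± 0.330 CPM (SD, n = 8) in p107 tumors and 2.003 ± 1.60 CPM (SD, n = 8) in p130 tumors. Its log2 fold change, p107 minus p130, was -0.92 ± 0.38 (SE), with a 95% interval of -1.73 to -0.11 and an edgeR adjusted p of 0.358. Without tumor sgp130_6638T3 it was -0.50, and without the whole mouse sgp130_6638 it was -0.39. Both fits that allow for shared mice took it out of the genes with an unadjusted p under 0.05. It was -0.82 ± 0.45 (SE) with an edgeR adjusted p of 0.810 on counts summed per mouse. It was -0.66 ± 0.41 (SE) with a limma adjusted p of 0.845 when the mouse entered voom as a random effect. Among tumors with Y-linked transcripts only, 8 p107 and 2 p130 tumors from 1 mouse, it was -0.93 with an adjusted p of 0.738.

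Junb averaged 25.96 ± 8.53 CPM in p107 tumors and 35.8 ± 11.9 in p130 tumors (SD, n = 8 each), with a log2 fold change of -0.46 ± 0.23 (SE) and an edgeR adjusted p of 0.449. For Ier2 the means were 23.5 ± 8.12 and 32.1 ± 11.7 CPM, with a log2 fold change of -0.45 ± 0.26 and an edgeR adjusted p of 0.514. For Fos they were 13.97 ± 1.81 and 17.4 ± 5.38 CPM, with a log2 fold change of -0.31 ± 0.18 and an edgeR adjusted p of 0.528. All 3 intervals reached from below to just above 0, and thus held a level in p107 tumors of 0.516 to 1.02 times that in p130 tumors for Junb, 0.503 to 1.07 times for Ier2 and 0.615 to 1.05 times for Fos. Egr1 had a lower value than these 3 but a wider error, -0.53 ± 0.41 with an edgeR adjusted p of 0.637, and without mouse sgp130_6637 it was 0.22. The remaining 5, Jun, Atf3, Dusp1, Nr4a1 and Btg2, had log2 fold changes between -0.19 and 0.18 with edgeR adjusted p-values of 0.835 to 0.972. Their intervals were wide, as for Dusp1, where the level in p107 tumors was 0.753 to 1.70 times that in p130 tumors, so that differences of that size were not detectable with these tumors.

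**Figure D2:**
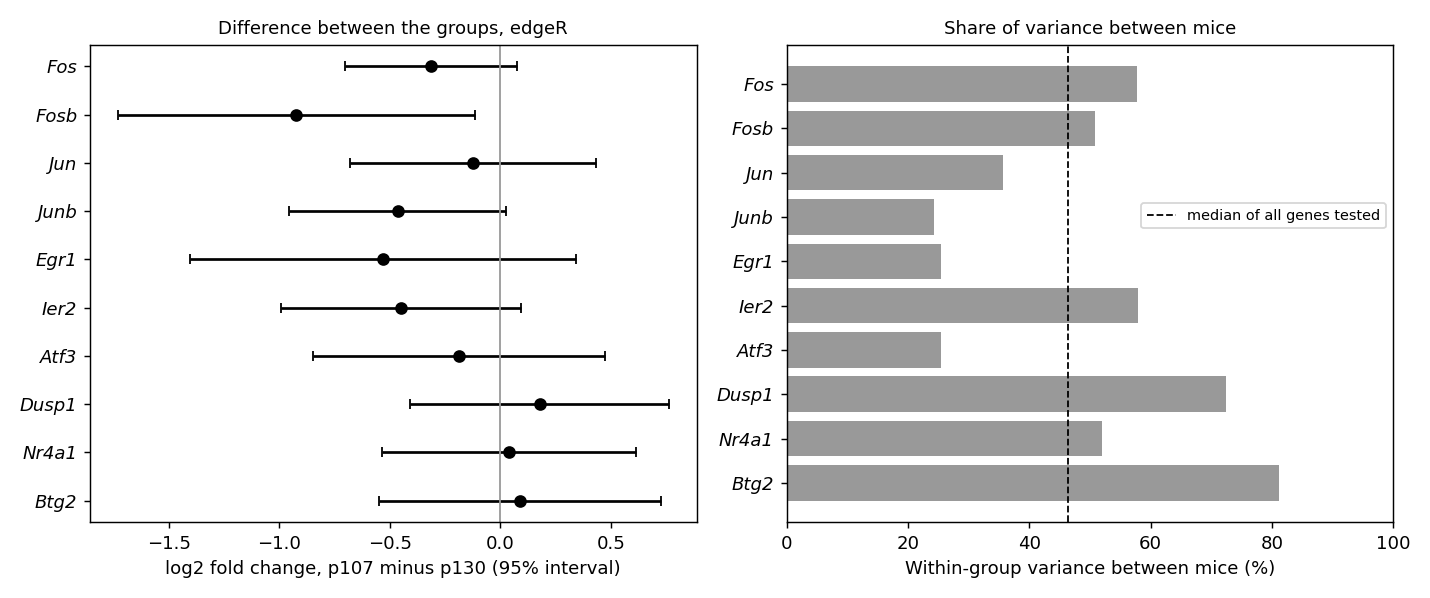
Left, log2 fold change of each gene, p107 minus p130 (horizontal axis), from edgeR over 8 and 8 tumors, with 95% intervals as bars. Right, the percent of the variance within groups that lies between mice (horizontal axis), with the median of all genes tested, 46.4%, as a dashed line; only the interval of Fosb leaves out 0 on the left, in a fit that takes sister tumors as separate samples, and Btg2, at 81.2%, and Dusp1, at 72.5%, reach farthest on the right.

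Sister tumors, which share a mouse, were set against tumors of other mice of the same group. The share of the variance of log2(CPM + 1) within groups that lay between mice would be 35.7% on average if sister tumors were no more alike than others. Its median was 51.4% over the 10 genes and 46.4% over all genes tested. Btg2 had the largest share, 81.2%, followed by Dusp1 with 72.5%, Ier2 with 57.9%, Fos with 57.7%, Nr4a1 with 52.0% and Fosb with 50.8%. Jun was at 35.7%, and Egr1, Atf3 and Junb were lower, at 25.5%, 25.4% and 24.3%.

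A joint edgeR quasi-likelihood test of the 5 contrasts between mice of one group called 0 of the 10 genes at an adjusted p under 0.05, where 33 genes, or 0.222% of all tested, were called. At an unadjusted p under 0.05 it counted 2 of the 10, Btg2 and Dusp1, where 19.9% of all genes tested were counted. The edgeR adjusted p was 0.103 for Btg2 and 0.114 for Dusp1. DESeq2 called these 2 genes, with adjusted p-values of 0.000519 and 0.00148, but it called 16.3% of all genes in the same comparison. Without mouse sgp107_6627 the edgeR adjusted p became 0.791 for Btg2 and 0.489 for Dusp1.

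In that mouse both tumors combined low Btg2 with high Dusp1. Dusp1 was also high in sgp130_6697T1, at 111 CPM, but not in its sister sgp130_6697T2, at 50.2 CPM. These tumors were low in 3 of 6 airway epithelial markers, the club cell genes Scgb1a1, Scgb3a2 and Cyp2f2. The summed level of these 6 markers, Scgb1a1, Scgb3a2, Foxj1, Cyp2f2, Krt5 and Bpifa1, was 116 and 155 CPM in the tumors of sgp107_6627 and 76.8 CPM in sgp130_6697T1. It was 183 CPM in sgp130_6637T1 and 887 to 8593 CPM in the other 12 tumors. Scgb1a1 was at 55.4 to 129.6 CPM in these 4 tumors and at 733 to 7711 in the other 12. Of these 4, sgp130_6637T1 had Dusp1 at only 35.0 CPM, near the lowest p130 value of 32.4, and Btg2 at 106 CPM, the lowest p130 value. Tumor sgp130_6697T1, with high Dusp1, had Btg2 at 172 CPM, above the p130 median of 150.1. Foxj1, a marker of ciliated cells, and Bpifa1 were not set apart, with Foxj1 at 15.6 and 10.3 CPM in the tumors of sgp107_6627 against a p107 median of 10.9, and Krt5 was at 0 in 14 of the 16. Over the 16 tumors, the mean log2(CPM + 1) of the airway markers had a Pearson r of 0.60 with Btg2 and of -0.58 with Dusp1, given as a description. Other marker lists had values of like size. The r with Dusp1 was -0.58 for 7 alveolar epithelial markers, whose sum was 228 to 756 CPM in p107 and 149 to 709 CPM in p130 tumors, with none of the 7 at 0. The r with Btg2 was -0.61 for 7 mast cell and platelet markers, of which Tpsb2 was at 0 in 12 tumors and Cpa3 in 9, with sums of 71.0 to 228 and 59.95 to 207 CPM. It was -0.51 for 8 endothelial markers, with sums of 125 to 230 and 68.1 to 136 CPM and none at 0. The part of any of these cells in the levels of Btg2 and Dusp1 was not tested.

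Between sister tumors of one mouse, the levels of Fos, Fosb and Nr4a1 were usually near each other. The ratio of the highest to the lowest sister had a median over the 7 mice of 1.201-fold for Nr4a1, 1.21-fold for Fos and 1.28-fold for Fosb. It was 1.37-fold for Dusp1, 1.44-fold for Ier2, 1.45-fold for Btg2 and 1.52-fold for Jun, and higher for Junb, at 1.76-fold, Egr1, at 1.91-fold, and Atf3, at 2.004-fold. The largest ratios between sisters were 8.54-fold for Egr1 in mouse sgp130_6637, 4.88-fold for Fosb in mouse sgp130_6638 and 4.26-fold for Atf3 in mouse sgp107_6627. For Egr1 the extremes of the whole series thus lay within 1 mouse.

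Mice differed in how many of the 10 genes parted their sister tumors by more than 2-fold. There were 5 such genes in mouse sgp130_6638, 4 in sgp130_6697, 2 each in sgp107_6627 and sgp107_6629, 1 in sgp130_6637 and 0 in sgp107_6630 and sgp107_6631. Mice sgp130_6637 and sgp130_6638 had 3 tumors and the others 2, which widens their ranges. The share of all genes tested past 2-fold in each mouse was not computed. Mice also differed in the median range over all genes tested, from 0.24 on the log2 scale in sgp107_6631 to 0.62 in sgp130_6637. In sgp130_6638 the median range of the 10 genes between sisters was 0.86 on the log2 scale, against 0.58 over all genes tested. In sgp130_6637 it was 0.56, against 0.62 over all genes tested. The 10 genes exceeded the median of all genes in 5 of 7 mice by this measure.

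The tumor that was highest among its sisters was compared between the genes. Junb and Ier2 peaked in the same sister tumor in 7 of 7 mice. Dusp1 peaked with Junb in 6 of 7 mice and with Ier2 in 6 of 7. At the other end, Atf3 and Nr4a1 peaked in the same sister in 0 of 7 mice. Pairs with 5 of 7 were Junb and Egr1, Egr1 and Ier2, Fos and Nr4a1, and Fosb and Btg2. With only 2 or 3 sisters per mouse, unrelated genes also often share the highest sister. The pairs named are the extremes of 45, and the counts were not set against those of all pairs of genes tested.

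Over the 45 pairs of the 10 genes, levels were related closely in few. Pearson's r of log2(CPM + 1) over the 16 tumors had a median of 0.03, was above 0 in 26 pairs, above 0.5 in 6 and below -0.5 in 2. Computed on the deviations of tumors from the mean of their mouse, it had a median of 0.16 and was above 0 in 26 pairs and above 0.5 in 9. Over the 7 mouse means, an exact two-sided permutation test of r left 0 of 45 pairs with a Benjamini-Hochberg adjusted p under 0.05. At an unadjusted p under 0.05 it counted 7 pairs for Pearson's r and 3 for Spearman's rho. The smallest p that 7 mice can give is 0.000198 and the smallest adjusted p reached was 0.259.

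**Figure D3:**
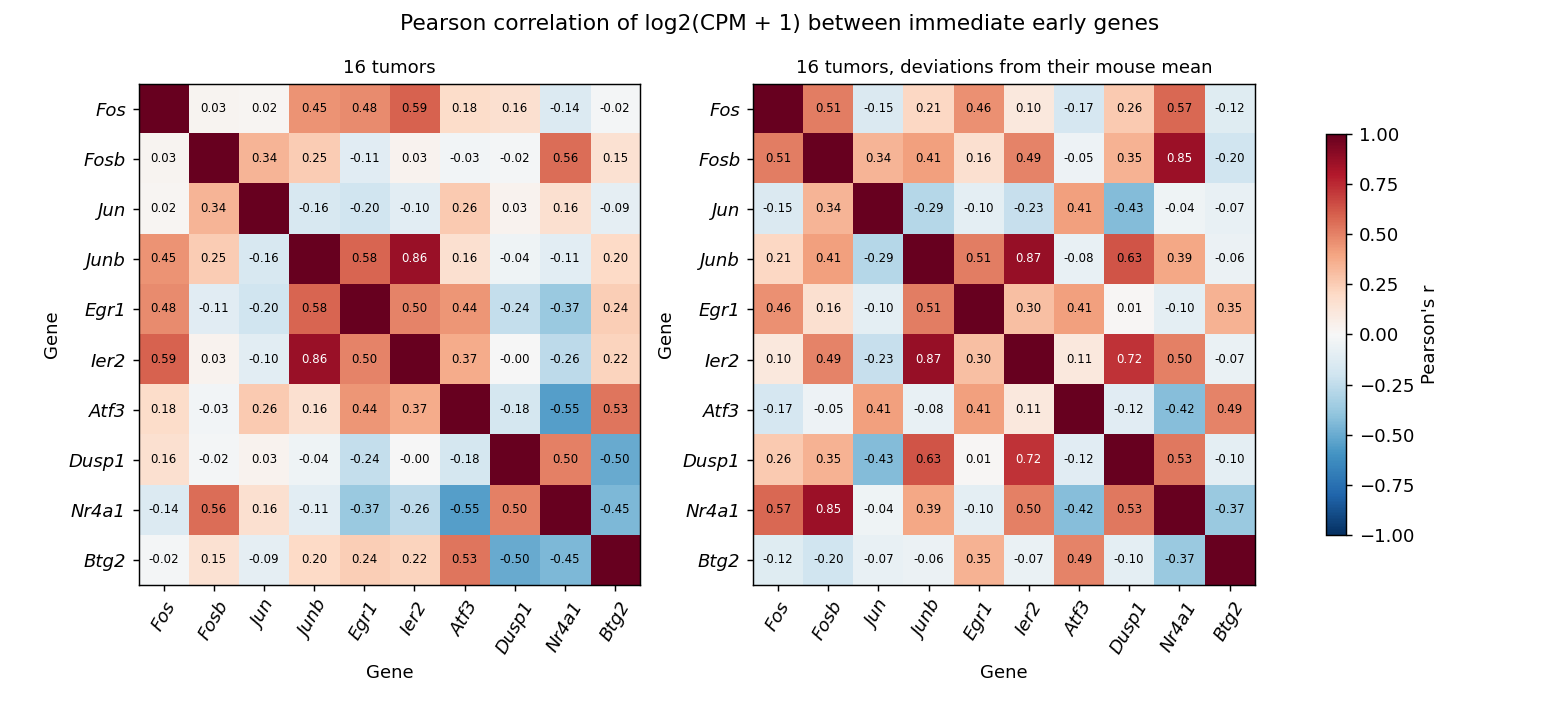
Pearson's r of log2(CPM + 1) between each pair of the 10 genes (both axes), over the 16 tumors on the left and over the deviations of the tumors from their mouse mean on the right, with the value printed in each cell. Junb and Ier2 stand out in both panels, at 0.86 and 0.87.

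The closest pair was Junb and Ier2. Their r was 0.86 over the 16 tumors, with a Spearman rho of 0.83, 0.91 in the p107 tumors, 0.78 in the p130 tumors and 0.87 within mice. Leaving out any 1 tumor gave 0.84 to 0.90. Over the 7 mice, r was 0.92 with an exact permutation p of 0.00575 and rho was 0.89 with an exact permutation p of 0.0123, and after adjustment over the 45 pairs these became 0.259 and 0.554. Without the 2 mice farthest from the median of Junb, r was 0.57. Of 14856 tested genes, Ier2 had the highest r with Junb over the tumors, and Junb the second highest with Ier2. Both genes lie on mouse chromosome 8, with 23 annotated genes between them in the RefSeq order for GRCm38.p6, and 16 of these were tested. This neighbourhood was examined after the r of the pair had been seen. The r of the 16 neighbours with Junb had a median of 0.25, against -0.00191 over all genes tested.

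Fosb and Nr4a1 rested on a single tumor. Their r was 0.56 over the tumors and 0.85 within mice, but without sgp130_6638T3 it was -0.00438 over the tumors and 0.34 within mice. Over the 7 mice it was 0.21. In the same way, Atf3 and Btg2 had an r of 0.53 over the tumors and of 0.02 without sgp107_6627T1. The r of Atf3 and Nr4a1 was negative, at -0.55 over the tumors, -0.42 within mice and -0.79 over mice, with an exact permutation p of 0.0357 and an adjusted p of 0.316. Dusp1 had an r near 0 with Junb and Ier2 over the tumors, at -0.04 and -0.00112, while within mice r was 0.63 and 0.72.

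**Figure D4:**
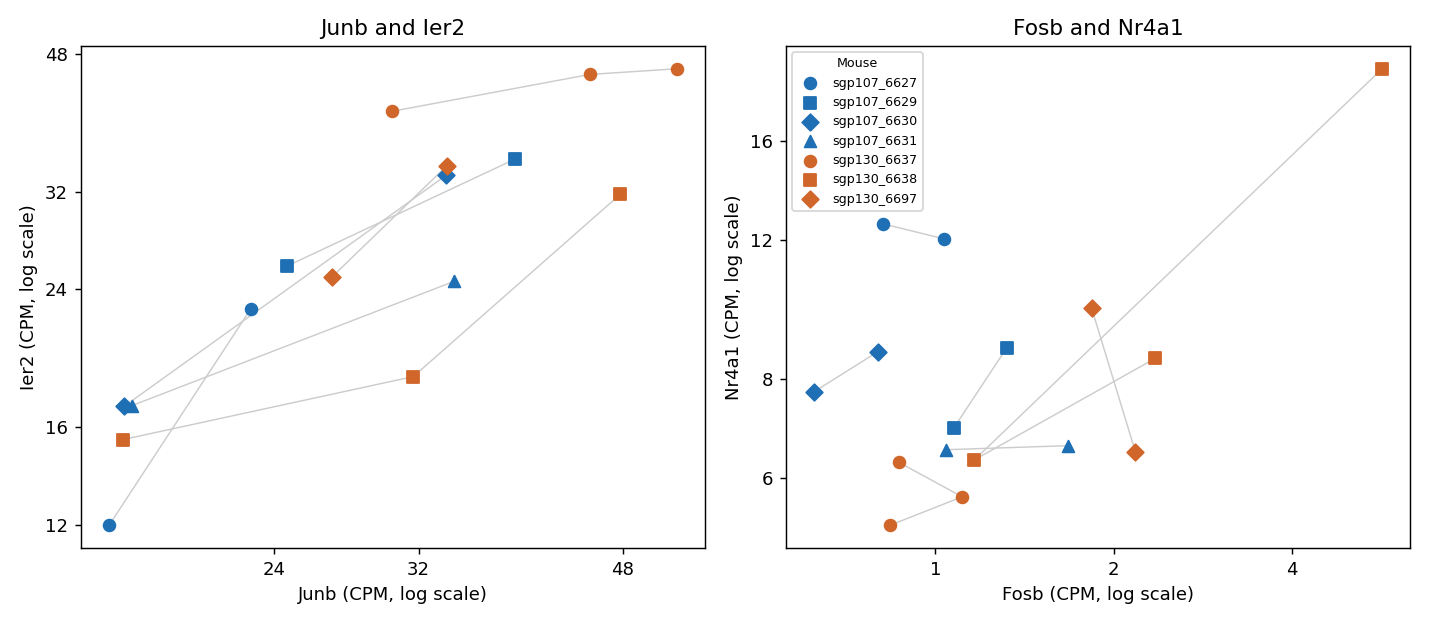
Levels of Junb and Ier2 (left) and of Fosb and Nr4a1 (right) in CPM on log axes, 1 point per tumor, with shape and color for the mouse and grey lines joining sister tumors. The tumor of mouse sgp130_6638 at 5.68 CPM of Fosb and 19.7 CPM of Nr4a1 stands apart from the other 15 on the right, while the tumors spread along a diagonal on the left.

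Tumor sgp130_6638T3 was also the highest for other immediate early genes. Of a list of 36 further immediate early genes, 34 were tested, and 8 of these had their highest level in this tumor, where 6.56% of all genes tested did. Of the 34, 7 were highest in sgp107_6631T2, where 6.42% of all genes tested were. Another 6 were highest in sgp107_6627T1, where 15.3% of all genes tested were. In both of these tumors 0 of the 10 genes were highest. The 8 highest in sgp130_6638T3 were the AP-1 genes Fosl2 and Jund, the small Maf gene Maff, Gadd45b, Rhob, Ppp1r15a, Plk2 and Arc. Arc is known for its induction by activity in neurons. It reached 152 CPM in sgp130_6638T3, against 53.2 CPM in the next tumor and a median of 36.6 CPM. Tumor sgp130_6638T3 had the fewest estimated counts of the 16, 12700334. Macrophage markers, of which 8 of 9 had a row and none was at 0, summed to 254 CPM in it and to 191 to 612 CPM over the 16 tumors, and their mean log2(CPM + 1) had an r of -0.59 with Fosb and -0.57 with Nr4a1. Their part in these levels was not tested.

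The 34 further genes were put through the same tests. None passed the edgeR adjusted p of 0.05 between p107 and p130 tumors, 18 had a higher and 16 a lower fitted level in p107 tumors, and their median log2 fold change was 0.03. At an unadjusted p under 0.05 there were 4 of 34, near the 11.8% of all genes tested, with log2 fold changes of 0.67 for Ier5, 0.58 for Nfkbia, 0.51 for Klf2 and -0.51 for Rhob, none with an edgeR adjusted p below 0.249. Between mice of one group 0 of the 34 passed and 3 had an unadjusted p under 0.05, where 19.9% of all genes tested did, namely Errfi1, a feedback inhibitor of the EGF receptor, Maff and Trib1. Junb had a positive r over the tumors with 26 of the 34, Ier2 with 23, Fosb with 22 and Egr1 with 21. The count was 16 for Nr4a1, 15 each for Fos, Atf3 and Btg2, 14 for Jun and 12, the fewest, for Dusp1. Of all genes tested, the share with a positive r ran from 47.2% for Fos to 51.3% for Atf3. The median r with the 34 was small throughout, from -0.11 for Jun to 0.11 for Fosb.

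Upstream and downstream of the 10 genes, no listed gene passed the adjusted p of 0.05 in either edgeR test. Of 21 kinases and transcription factors that act on immediate early promoters, 10 were higher and 11 lower in p107 tumors. The smallest unadjusted p-values between the groups were those of Elk1, an ETS partner of serum response factor (log2 fold change 0.43), and Mapk3, which encodes ERK1 (-0.29), with edgeR adjusted p-values of 0.278 and 0.412. Between mice they were those of Mapk8, which encodes JNK1, and the kinase gene Rps6ka1, with edgeR adjusted p-values of 0.0754 and 0.0886. Of 12 genes that ERK signaling induces as its own brakes or targets, 6 were higher and 6 lower, led by Dusp5 at -1.02 and Etv4 at -1.40, with edgeR adjusted p-values of 0.366 and 0.404. Between mice of one group, 6 of the 12 had an unadjusted edgeR p under 0.05, where 19.9% of all genes tested did. The smallest were those of Spry2 and Spred2, with edgeR adjusted p-values of 0.129 and 0.145. The summed level of these 12 was highest, at 626 CPM, in sgp130_6697T1, the tumor with the highest Dusp1, and its phosphatase Dusp4 alone reached 216 CPM there.

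Genes of other stress responses were set beside the 10. Of 12 heat shock genes 9 had a lower fitted level in p107 tumors, of 14 hypoxia genes 12 did, and of 12 genes of the integrated stress response 9 did, with medians of -0.10, -0.21 and -0.22 on the log2 scale and none called. Across the 16 tumors, the mean log2(CPM + 1) of the integrated stress response list had an r of 0.68 with Atf3 and of 0.06 with Egr1. Both Atf3, at 2.33 CPM, and the summed list, at 1120 CPM, were lowest in sgp107_6627T1. Atf3 is known to be induced by that response, but the part of the response in its level here was not tested. The heat shock list had an r of -0.62 with Egr1 and 0.50 with Jun, and the hypoxia list one of 0.52 with Btg2 and 0.50 with Fosb. Of the 14 hypoxia genes, 6 were highest in sgp130_6638T3, the tumor where Fosb and Nr4a1 peaked, among them Vegfa at 238 CPM, Bnip3 at 418 CPM and Pdk1 at 190.5 CPM. Of all genes tested, 6.56% were highest there. Another 5 of the 14 were highest in sgp130_6637T1, where 14.1% of all genes tested were. The 14 summed to 3894 CPM in sgp130_6637T1 and to 3355 CPM in sgp130_6638T3. Fosb was at 0.869 CPM and Nr4a1 at 6.29 CPM in sgp130_6637T1. The part of hypoxia in the levels of Fosb and Nr4a1 was not tested. The list of upstream kinases and factors had an r of 0.70 with Egr1. These are descriptions over tumors that share mice.

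Genes other than the 10 were ranked by their likeness to a score of the 10 and to Fos. For each tumor a score was taken as the mean of the 10 levels, each scaled to mean 0 and SD 1. It was lowest in sgp107_6627T1, at -0.75, and highest in sgp130_6638T3, at 0.71. The score did not stand for all 10 alike. With the score of the other 9, r was 0.59 for Ier2, 0.58 for Junb, 0.45 for Fos, 0.33 for Egr1 and 0.30 for Fosb and Atf3. It was 0.07 for Btg2, 0.06 for Jun, -0.07 for Dusp1 and -0.15 for Nr4a1. Among 11331 genes with a mean of at least 5 CPM, the 12 with the highest r with the score over the 16 tumors included Pacsin1, at 0.85, Enpp4, Atg7, Map2k3, Pdpk1, Tob2, Phkb, Stk40, Slc10a7, Slc37a3 and Mknk2, at 0.72. Pacsin1 encodes a protein of endocytosis in neurons, Map2k3 a kinase that activates p38 and Pdpk1 the kinase PDK1. The 12 genes most like Fos itself were Sec61a1, at 0.83, Serinc2, Ipo13, Tusc3, BC003266, Spsb3, Cdc20, Rab40c, Fkbp1b, Copg, Palld and Heatr7a, at 0.69. These rankings shared 0 genes. The 10 were left out of both beforehand, and none of the 24 was among the 34 further immediate early genes tested. Depth and Rn45s content had r between -0.42 and 0.23 with each of the 10 genes over the tumors.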

How the data were processed

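Total RNA from 16 frozen mouse tumors was sequenced after library preparation with a KAPA mRNA kit, per the labels' protocols. The main table the authors deposited holds estimated counts for 23224 gene rows. Another deposited table gives a normalized signal for 21523 of these rows and served as an alternative. The submitters' processing notes name RSEM 1.2.12, Bowtie 1.0.1 and mm9. For the annotation and strandedness, the value is not given in the sources used here, so reads of overlapping or antisense partners may be mixed. Of the estimated counts of a tumor, 42.1% to 54.6% were not whole, so the values were rounded before testing.

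edgeR 4.0.16 in R 4.3.3 gave TMM factors, the filter on low counts (filterByExpr) and robust quasi-likelihood F tests with Benjamini-Hochberg adjustment over 14857 genes. One test compared p107 with p130 tumors without a block. The other tested jointly the differences between mice of one group. SEs were obtained as the absolute log2 fold change over the square root of F. Means and SDs are of CPM, and correlations and spreads are of log2(CPM + 1). Permutation tests over 7 mouse means used all 5040 pairings. Both edgeR tests were checked on simulated data, with tumors drawn independently. The group test recovered 52% of genes given a log2 change of 1 and 88% of those given 2. The test between mice recovered 39.5% of genes given a mouse effect with an SD of 1 on the log2 scale. Unchanged genes called were 4 and 3. DESeq2 1.42.0, limma 3.58.1 (with voom), other scalings and filters, sums per mouse and left-out mice or tumors were alternatives. The labels call the tumors biological replicates. Tumors of one group differed beyond sampling noise in all 56 pairs, with a mean chi-square per gene of at least 38.5.

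The 10 genes, the other gene lists and markers, and the tests were chosen with earlier results of these data known. All 10 are named, and in each further list up to 4 genes of smallest p per test. Genes most like a target are the 12 of highest r, with the 10 genes and unnamed gene models passed over. Some genes are not reported here. Genes highest in sgp130_6638T3, and the neighbours of Junb and Ier2, were named after their values were seen. Promoters are from RefSeq (GRCm38.p6), a build other than that of the counts, so no coordinates were joined to the counts.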

Additional observations from a re-analysis of the deposited data

Results flagged for a closer look

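In 5 of the 20 sets examined (10 genes in 2 groups of 8 tumors), 1 tumor lay far from the other 7. Its gap exceeded 0.526 of the group's range in CPM, Dixon's 95% limit for 8 values. Chance passes this limit in about 1 set of 20 only if values are independent and normally distributed. Sister tumors need not be independent, CPM were not put on a log scale here, and all other genes were not examined. How many sets chance would flag here is thus not known. Fosb was at 5.68 CPM in sgp130_6638T3, against 0.837 to 2.35 CPM in the other p130 tumors. Nr4a1 was at 19.7 CPM in the same tumor, against 5.23 to 9.85 CPM. Jun was at 178 CPM in sgp107_6629T1, against 62.3 to 113 CPM in the other p107 tumors. It was at 208 CPM in sgp130_6697T2, against 62.6 to 116 CPM in the other p130 tumors. Dusp1 was at 111 CPM in sgp130_6697T1, the sister of that tumor, against 32.4 to 50.2 CPM in the other p130 tumors.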

How the results depend on the processing

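Under all alternatives of the group test, 0 of the 10 genes were called, with edgeR or otherwise. The number of all genes called there was 4, and it became 212 with DESeq2, 1 with limma on the normalized table, 1 with counts summed per mouse, 0 with voom and the mouse as a random block (932 at an unadjusted p under 0.05) and 0 among tumors with Y-linked transcripts (1037 unadjusted). Leaving out 1 mouse or tumor gave 0 to 10 genes, with 10 without mouse sgp130_6697. Between mice of one group, 33 genes became 17 with a stricter filter and 2425 with DESeq2, the only setting in which any of the 10 were called, 2 in number. Leaving out 1 mouse or tumor gave 6 to 146, with 146 without sgp130_6697, and 0 of the 10 genes in each case. All log2 fold changes whose sign turned were uncalled. Btg2 became -0.13 with limma on the normalized table, -0.12 with voom and -0.11 among tumors with Y-linked transcripts, where Egr1 became 0.20 and Dusp1 -0.53. With a mouse or tumor left out, Btg2 ranged from -0.10 to 0.37, Dusp1 from -0.15 to 0.52, Egr1 from -0.86 to 0.22, Jun from -0.34 to 0.10 and Nr4a1 from -0.22 to 0.37. Over mice, r ranged from -0.14 to 0.63 for Fosb and Nr4a1 and from -0.86 to 0.15 for Dusp1 and Btg2, and stayed at 0.81 or above for Junb and Ier2. Fos, Fosb, Junb, Ier2 and Atf3 kept a value below 0 under all settings that tested them, but with a mouse or tumor left out Ier2 ranged from -0.71 to -0.08, Fos from -0.55 to -0.10, Fosb from -1.32 to -0.39, Junb from -0.58 to -0.28 and Atf3 from -0.37 to -0.01. The values nearest 0 for Fos, Ier2 and Junb came without mouse sgp130_6637. The stricter filter removed Fosb. The cause of these shifts was not tested. No paired analysis was possible because each mouse carried 1 mutation and the replicate numbers only name tumors in accession order. With 3 and 4 mice per group, few tumors per mouse and 11 counts of Fosb in the lowest tumor, small differences were not detectable.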
